A study of Homo sapiens with 18 samples.

Results

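Homologous recombination copies intact DNA into a broken chromosome, and the Fanconi anaemia pathway unhooks crosslinks between DNA strands and hands the resulting breaks to the same machinery. The transcripts of these genes were examined in a lung carcinoma line after p53 constructs were expressed in it. The list holds 34 named genes, and 29 of them were measured, each by 1 probe set that the annotation pairs with its symbol alone, among 18417 genes with such a probe set. RAD51D was represented only by a probe set with several symbols and was left out, and BRCA2, FANCA, FANCD2 and RBBP8 were not analysed here. The rule for the list names genes and uses no measured value, but the list was drawn up with earlier results of these data known. In this pathway BRCA1 and its partners organise repair on resected DNA, XRCC2, XRCC3 and their partners and the RAD54 proteins help the exposed strand to pair with an intact copy, the Fanconi core complex attaches ubiquitin to the FANCD2-FANCI clamp, and nucleases and topoisomerases resolve the joined molecules. Many of these genes are expressed mainly in S and G2 phase, and p53 is known to lower many cell cycle genes indirectly, through p21 and repressor complexes of the RB family.

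RNA was taken from NCI-H1299, a non-small cell lung carcinoma line without p53, 40 hours after transient transfection with plasmids that also encode a green fluorescent protein. Fluorescent cells were sorted, and their RNA was hybridised to 18 Affymetrix Gene arrays. A first set of 9 arrays compares 3 transfections: the plasmid alone (vector), full-length wild-type p53 (WTp53), and ΔNp53:WTp53, the combination of WTp53 with the shorter isoform ΔNp53. Its experiments 0, 4 and 5 are described by the series as independent transfections. A further 9 arrays, of experiments d, e and f, compare the vector and WTp53 with a construct titled tethered WTp53. These are called control experiments, and their independence is not stated, so their p-values measure only the spread between these arrays, which may be technical. All groups share the p53-null line, the plasmid backbone and the sort, and each has 3 arrays. The transfection field of the tethered arrays names ΔNp53:WTp53 while their titles name the tethered construct; the titles were followed. All p53 constructs were overexpressed transiently, and the labels name 1 line only.

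The values are log2 intensities, normalised apart in each set (array medians 4.89 to 4.97 in the first and 7.01 to 7.07 in the second), so levels were compared only within a set, and never between probe sets. Values of a gene are given in the order of experiments 0, 4 and 5 or d, e and f. Changes are log2 differences ± SE from a limma fit of each set (n = 3 arrays a group). The p-values are adjusted over 18417 genes, and a gene was called at an adjusted p under 0.05. The p53 targets CDKN1A, which encodes p21, and MDM2 rose with every p53 construct over the vector. CDKN1A rose by 4.62, 3.69, 3.13 and 3.22 with WTp53, ΔNp53:WTp53, WTp53 of the second set and tethered WTp53. MDM2 rose by 3.41, 3.09, 2.11 and 2.27. Of 9 fibroblast and endothelial markers, 0 lay above the median gene in the first set and 1 in the second, and of 7 leukocyte markers 2 in each. Of 11 genes listed together as epithelial and carcinoma markers 4 lay above it in each, namely KRT8, KRT18, CDH2 and VIM. Of these, CDH2 and VIM are not specific to epithelial cells. Others of that list were low: EPCAM lay at the 9.6 and 13.7 percentile and CDH1 at the 19.4 and 20.3 percentile of the first and second set. Replicate spread was wider in the first set. The median gene had an SD of 0.151 over the ΔNp53:WTp53 arrays and of 0.104 to 0.109 over its other groups, against 0.0493 to 0.0693 in the second set. The ΔNp53:WTp53 array of experiment 0 stood apart: 27 of 29 members were above their group mean on it, by a median of 0.47. On the same array the mean of 18 p53 targets was 8.57, against 8.88 and 8.94 on the arrays of experiments 4 and 5, and the mean of 22 mitosis genes was 8.39, against 7.42 and 6.99. Counts of calls in the first set are therefore also given without experiment 0, and values of a member where its call differs.

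The sequences just upstream of the members' start sites are shown first, since several members moved together. The 250 bases before each start in RefSeq (GRCh38.p14) were searched on both strands for E2F motifs (TTCCCGC or TTCGCGC or TTGCCGC or TTGGCGC), through which RB family complexes act, for the CHR element (TTTGAA or TTCGAA), for CCAAT boxes (CCAAT) and for a p53 half-site; 26 of the 29 measured members had an entry. An E2F motif was present for 9 of 26 members (34.6%), against 13% of 27305 genes and 10.9% of 35116 promoters of the same length. Among the 17 members with an entry that fell with ΔNp53:WTp53 against the vector, 8 held one, and among the 9 others 1 did. The CHR element was found for 2 of 26 members (7.69%, against 17.2% of genes), a CCAAT box for 11 of 26 (42.3%, against 37.0%) and the p53 half-site for 0 of 26 (against 6.80%). Member promoters had a median GC content of 63.2%, against 58.0% for all, and base composition alone changes how often such short motifs occur. The 4 members shown first hold an E2F motif and had the largest falls with ΔNp53:WTp53 among members that do, RAD51C is the member that rose with WTp53, and SLX4 the one with the smallest change. Each is written 5′ to 3′ on the gene's strand, with E2F motifs and CCAAT boxes of either strand in capitals.
RAD51AP1, chr12:4538640-4538889, plus strand: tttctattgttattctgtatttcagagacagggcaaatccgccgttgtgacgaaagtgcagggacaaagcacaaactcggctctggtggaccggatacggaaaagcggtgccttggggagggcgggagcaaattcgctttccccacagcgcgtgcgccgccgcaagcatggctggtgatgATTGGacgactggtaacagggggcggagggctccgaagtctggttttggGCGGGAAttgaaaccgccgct
BRCA1, chr17:43125365-43125614, minus strand: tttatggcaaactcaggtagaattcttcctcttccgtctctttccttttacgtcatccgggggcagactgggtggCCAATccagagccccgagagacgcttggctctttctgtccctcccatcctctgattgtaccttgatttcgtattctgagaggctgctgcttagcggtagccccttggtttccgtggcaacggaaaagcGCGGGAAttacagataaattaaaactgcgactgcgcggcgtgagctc
EME1, chr17:50372979-50373228, plus strand: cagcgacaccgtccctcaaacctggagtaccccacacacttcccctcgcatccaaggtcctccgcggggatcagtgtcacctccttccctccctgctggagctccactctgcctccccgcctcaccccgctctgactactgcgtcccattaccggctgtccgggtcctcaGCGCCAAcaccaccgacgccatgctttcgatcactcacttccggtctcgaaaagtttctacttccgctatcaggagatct
RMI1, chr9:83980555-83980804, plus strand: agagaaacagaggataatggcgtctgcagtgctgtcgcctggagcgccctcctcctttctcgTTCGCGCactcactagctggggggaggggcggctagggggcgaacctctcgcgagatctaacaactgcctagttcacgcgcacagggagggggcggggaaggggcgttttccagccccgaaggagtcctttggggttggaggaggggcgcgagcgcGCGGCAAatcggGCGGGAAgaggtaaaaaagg
RAD51C, chr17:58692323-58692572, plus strand: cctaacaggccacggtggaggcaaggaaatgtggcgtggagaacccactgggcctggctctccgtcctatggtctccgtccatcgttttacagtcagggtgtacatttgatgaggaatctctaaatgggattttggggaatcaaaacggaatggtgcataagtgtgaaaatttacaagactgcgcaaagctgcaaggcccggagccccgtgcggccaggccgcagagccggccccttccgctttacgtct
SLX4, chr16:3611607-3611856, minus strand: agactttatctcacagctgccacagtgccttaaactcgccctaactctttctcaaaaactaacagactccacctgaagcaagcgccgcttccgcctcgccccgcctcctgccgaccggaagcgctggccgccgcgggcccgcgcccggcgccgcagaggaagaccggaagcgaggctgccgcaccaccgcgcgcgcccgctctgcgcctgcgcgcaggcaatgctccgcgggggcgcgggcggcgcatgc
In RAD51AP1 the E2F motif GCGGGAA lies 21 bases before the start, and in BRCA1 the same letters lie 47 bases before it. RMI1 holds 3 matches, at 188, 32 and 20 bases before the start, and EME1 holds 1, at 80 bases. BRCA1 and RMI1 each have 2 start entries, and the entry shown was picked because it holds an E2F motif. The other entry of each holds no E2F motif, and that of RMI1 holds CCAAT boxes at 90 and 49 bases. RAD51C and SLX4 hold none of the 4 motifs in this window. XRCC2, BARD1 and EXO1, which had the largest falls of all, also have no E2F match in it, so members with and without the motif are found among the largest falls. A match is a string of letters and not a measured binding site.

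More members fell than rose with each p53 construct over the vector, and the 1 member called higher, RAD51C, was called so with WTp53 only. Counted by sign alone, 25 and 26 of 29 members were lower with WTp53 and ΔNp53:WTp53 in the first set, and 28 of 29 with either construct in the second. Of all 18417 genes, 8484 and 9039 were lower with WTp53 and ΔNp53:WTp53 in the first set. In the second set 10453 were lower with WTp53 and 9153 with tethered WTp53. With WTp53 in the first set 12 of 29 members fell and 1 rose, while 16.6% of all genes were called lower and 15.2% higher; the median change of the members was -0.58. With ΔNp53:WTp53 20 of 29 fell and 0 rose (20.3% of all genes lower and 15.7% higher), with a median of -0.73. In the second set 17 fell and 1 rose with WTp53 (18.9% and 17.9%; median -0.16), and 22 fell and 0 rose with tethered WTp53 (26.2% and 21.6%; median -0.45). Falls of at least 1.5-fold were called for 9, 18, 3 and 10 members in these 4 comparisons, and of at least 2-fold for 4, 10, 0 and 4. The shares of all genes at these fold cutoffs were not counted, so the numbers describe only the size of the falls. Without experiment 0, 19 fell and 1 rose with WTp53 (20.6% of all genes lower and 17.5% higher). The falls added were those of BRIP1 (-1.05), PALB2 (-0.81), XRCC2 (-1.18), RAD51AP1 (-0.64, adjusted p = 0.0495), RAD54B (-0.69), NBN (-0.51) and EME1 (-0.40, adjusted p = 0.0465). With ΔNp53:WTp53 21 fell and 0 rose in that fit (24.5% and 19.5%), adding TOP3A, and the median change was -0.96. The largest falls there were -2.37 for EXO1, -2.32 for BARD1, -2.25 for XRCC2, -2.05 for RAD51AP1, -1.93 for BRIP1 and -1.71 for BRCA1. With the experiment as a block, 17 fell and 1 rose with WTp53 in the first set (18.5% of all genes lower and 16.5% higher), adding BRIP1, PALB2, XRCC2, RAD54B and NBN, and 20 fell and 1, FANCE, rose with ΔNp53:WTp53 (21.9% and 16.7%). Leaving out 1 array at a time gave 4 to 13 calls with WTp53 and 11 to 23 with ΔNp53:WTp53. Of the falls with WTp53 those of FANCF, FANCL and FANCM were called in all 6 such fits, as was the rise of RAD51C, whereas BRCA1 lost its call in 6, BARD1, FANCI and RMI1 in 5, EXO1, TOP3A and MUS81 in 4, FANCG in 3 and FANCB in 1. Of the falls with ΔNp53:WTp53 11 were called in all 6, whereas PALB2, XRCC3, FANCI and NBN lost theirs in 5, RAD51B in 4, and BRIP1, RAD54L, RAD54B and FANCC in 3. With WTp53 in the second set, MUS81 and EME1 lost their calls in 4 such fits, NBN in 3 and FANCB in 2. The 4 members FANCE, RAD50, SLX4 and FAN1 were called in none of the 6 comparisons within sets. In each set both p53 constructs were compared with the same vector arrays, and fewer cells that express a gene cannot be told apart from less RNA per cell in such sorted populations.

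**Figure D1:**
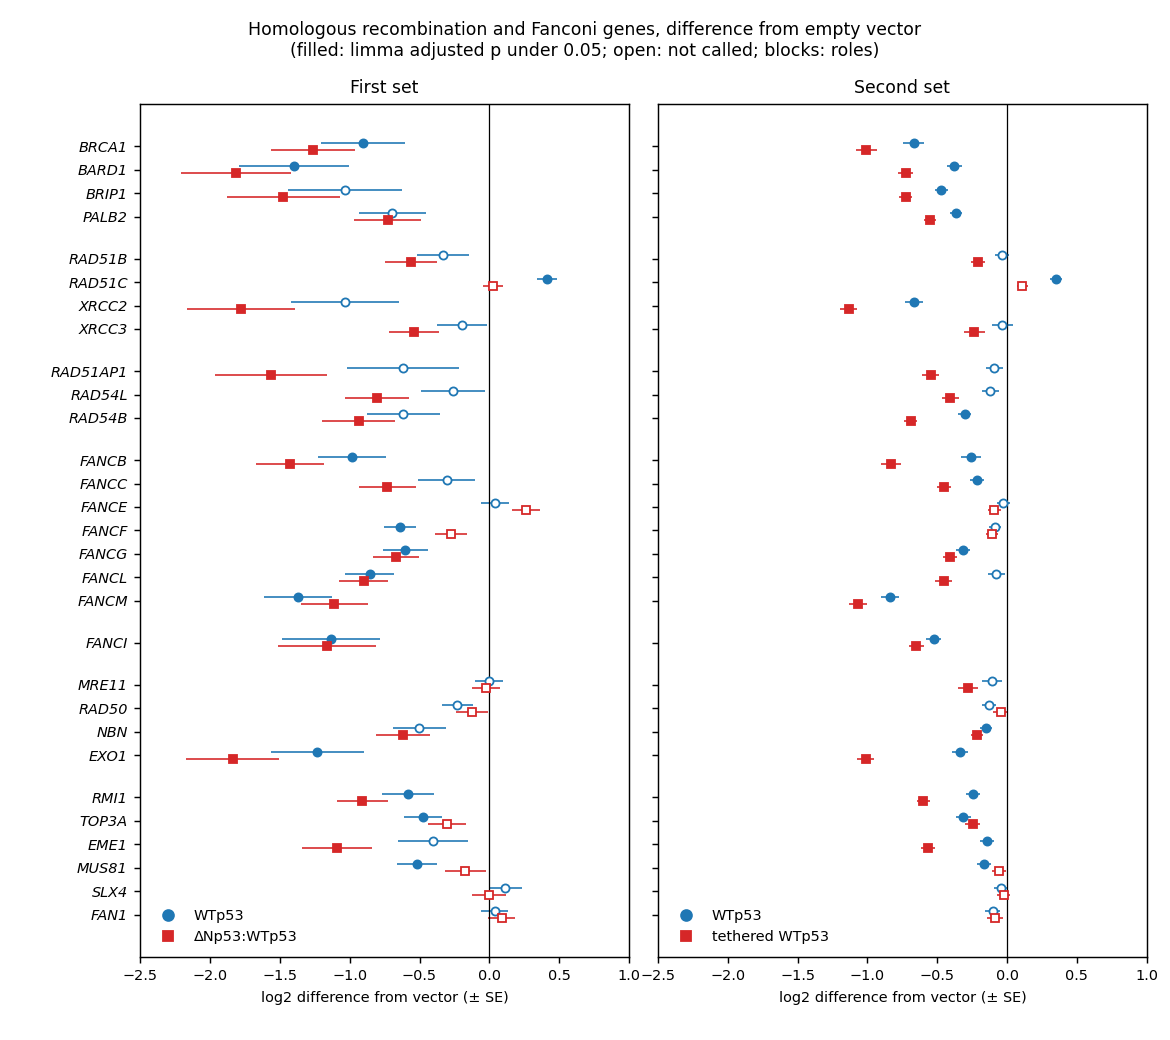
The log2 difference from the vector ± SE is plotted on the horizontal axis for each of the 29 members, in blocks by role, in the first set (left) and the second (right), with circles for WTp53, squares for the other construct and filled symbols for called members. Most symbols lie left of 0, RAD51C with WTp53 lies at 0.41 and 0.35, and FANCE, RAD50, SLX4 and FAN1 are drawn open in both panels.

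BRCA1 and BARD1 fell with all constructs in both sets, and BRIP1 and PALB2 with all except WTp53 in the first set. BRCA1, a ubiquitin ligase subunit and scaffold that brings repair proteins to breaks, read 6.65, 6.63 and 6.61 with the vector, 5.75, 5.67 and 5.76 with WTp53, and 6.28, 5.01 and 4.81 with ΔNp53:WTp53. Its second-set values were 8.37, 8.45 and 8.39 with the vector, 7.68, 7.76 and 7.76 with WTp53, and 7.34, 7.59 and 7.25 with tethered WTp53. The vector arrays were above all others in both sets, and the ΔNp53:WTp53 array of experiment 0 lay above the WTp53 arrays while those of experiments 4 and 5 lay below them. BRCA1 changed by -0.90 ± 0.30 (adjusted p = 0.0438) with WTp53 and -1.26 ± 0.30 (adjusted p = 0.00834) with ΔNp53:WTp53, and in the second set by -0.67 ± 0.08 (adjusted p = 4.02e-05) with WTp53 and -1.01 ± 0.08 (adjusted p = 8.87e-07) with tethered WTp53. The first of these calls was lost whenever any 1 of its 6 arrays was left out (highest adjusted p = 0.115).

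BARD1, the partner that makes BRCA1 an active ligase, read 6.89, 6.75 and 6.70 with the vector, 5.85, 5.22 and 5.06 with WTp53, and 6.08, 4.45 and 4.37 with ΔNp53:WTp53. It read 8.52, 8.54 and 8.57 with the vector, 8.10, 8.14 and 8.26 with WTp53, and 7.85, 7.75 and 7.85 with tethered WTp53 in the second set. The groups did not overlap with the vector in either set. BARD1 fell, with changes of -1.40 ± 0.39 and -1.82 ± 0.39 in the first set (adjusted p = 0.021 and 0.00514) and -0.38 ± 0.05 and -0.73 ± 0.05 in the second (adjusted p = 0.000161 and 5.81e-07). The call with WTp53 in the first set was lost in 5 of 6 fits that left out 1 array (highest adjusted p = 0.0841). BRIP1, a helicase that binds BRCA1, read 7.37, 7.01 and 6.98 with the vector, 6.37, 6.04 and 5.85 with WTp53, and 6.81, 5.32 and 4.81 with ΔNp53:WTp53. Its second-set values were 8.50, 8.60 and 8.46 with the vector, 8.05, 8.05 and 8.05 with WTp53, and 7.76, 7.80 and 7.82 with tethered WTp53. With WTp53 in the first set it differed by -1.03 ± 0.41 (adjusted p = 0.0814), a difference that passed with the experiment as a block (adjusted p = 0.0138). It fell, with changes of -1.48 ± 0.41, -0.47 ± 0.04 and -0.73 ± 0.04 in the other comparisons with the vector. PALB2, which links BRCA1 to BRCA2, read 7.07, 6.83 and 6.81 with the vector, 6.60, 6.08 and 5.95 with WTp53, and 6.76, 5.85 and 5.93 with ΔNp53:WTp53. In experiments d, e and f it read 9.0, 9.0 and 9.01 with the vector, 8.68, 8.65 and 8.59 with WTp53, and 8.45, 8.51 and 8.40 with tethered WTp53. All p53 arrays lay below all vector arrays in both sets. The difference with WTp53 was -0.70 ± 0.24 in the first set (adjusted p = 0.0504, and 0.00284 with the block). PALB2 fell, with changes of -0.73 ± 0.24 (adjusted p = 0.0381) with ΔNp53:WTp53, -0.36 ± 0.04 (adjusted p = 6.49e-05) with WTp53 of the second set and -0.55 ± 0.04 (adjusted p = 1.44e-06) with tethered WTp53. The first of these calls was lost in 5 of 6 fits that left out 1 array (highest adjusted p = 0.143).

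Of RAD51B, RAD51C, XRCC2 and XRCC3, related proteins that form complexes with each other and aid recombination, 1 rose with WTp53 and 3 fell with other constructs or sets. XRCC2 had one of the largest falls of the list. It read 7.46, 7.41 and 7.28 with the vector, 6.72, 6.39 and 5.94 with WTp53, and 6.63, 5.43 and 4.75 with ΔNp53:WTp53. It read 10.06, 9.91 and 9.99 with the vector, 9.35, 9.28 and 9.33 with WTp53, and 8.82, 8.76 and 8.98 with tethered WTp53 in the second set. The ΔNp53:WTp53 arrays spanned almost 2 log2 units, whereas the second-set groups were tight and in the order vector, WTp53, tethered WTp53 without overlap. XRCC2 fell, with changes of -1.78 ± 0.39 (adjusted p = 0.00512) with ΔNp53:WTp53, -0.67 ± 0.06 (adjusted p = 9.40e-06) with WTp53 in the second set and -1.13 ± 0.06 (adjusted p = 8.35e-08) with tethered WTp53. With WTp53 in the first set it differed by -1.03 ± 0.39 (adjusted p = 0.0673), which passed with the block (adjusted p = 0.0113).

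RAD51C, which binds RAD51B or XRCC3 in separate complexes, was the exception among the members. Its values were 8.02, 8.08 and 8.06 with the vector, 8.48, 8.48 and 8.43 with WTp53, and 8.09, 8.08 and 8.07 with ΔNp53:WTp53. The WTp53 arrays stood above both other groups in every experiment, and the ΔNp53:WTp53 arrays (8.07 to 8.09) overlapped with the vector. Its second-set values were 10.18, 10.11 and 10.13 with the vector, 10.43, 10.52 and 10.52 with WTp53, and 10.26, 10.24 and 10.25 with tethered WTp53. The WTp53 arrays were again the highest, and the tethered arrays lay between them and the vector. RAD51C rose with WTp53 by 0.41 ± 0.07 (adjusted p = 0.00165) in the first set and by 0.35 ± 0.04 (adjusted p = 6.50e-05) in the second. With ΔNp53:WTp53 it differed from the vector by 0.03 ± 0.07 (adjusted p = 0.829), and with tethered WTp53 by 0.11 ± 0.04 (adjusted p = 0.0515). It was lower than with WTp53 in both of these groups, with differences of -0.39 ± 0.07 (adjusted p = 0.0248) in ΔNp53:WTp53 cells and -0.24 ± 0.04 (adjusted p = 0.00158) in tethered WTp53 cells. The call against WTp53 in the first set was kept with the block (adjusted p = 0.0342) and without experiment 0 (adjusted p = 0.0235), but was lost in 5 of 6 fits that left out 1 array (highest adjusted p = 0.114), while the change stayed between -0.40 and -0.38.

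RAD51B, which partners RAD51C, fell, with changes of -0.56 ± 0.19 (adjusted p = 0.0377) with ΔNp53:WTp53, where the groups overlapped, and -0.21 ± 0.05 (adjusted p = 0.00402) with tethered WTp53. With WTp53 it differed by -0.33 and -0.04 and was not called. XRCC3, the other partner of RAD51C, fell, with changes of -0.54 ± 0.18 (adjusted p = 0.0373) and -0.23 ± 0.07 (adjusted p = 0.0209) with the same constructs and was not called with WTp53 (-0.20 and -0.03). With ΔNp53:WTp53 these calls were lost in 4 and 5 of 6 fits that left out 1 array, and with tethered WTp53 that of XRCC3 was lost in 4.

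**Figure D2:**
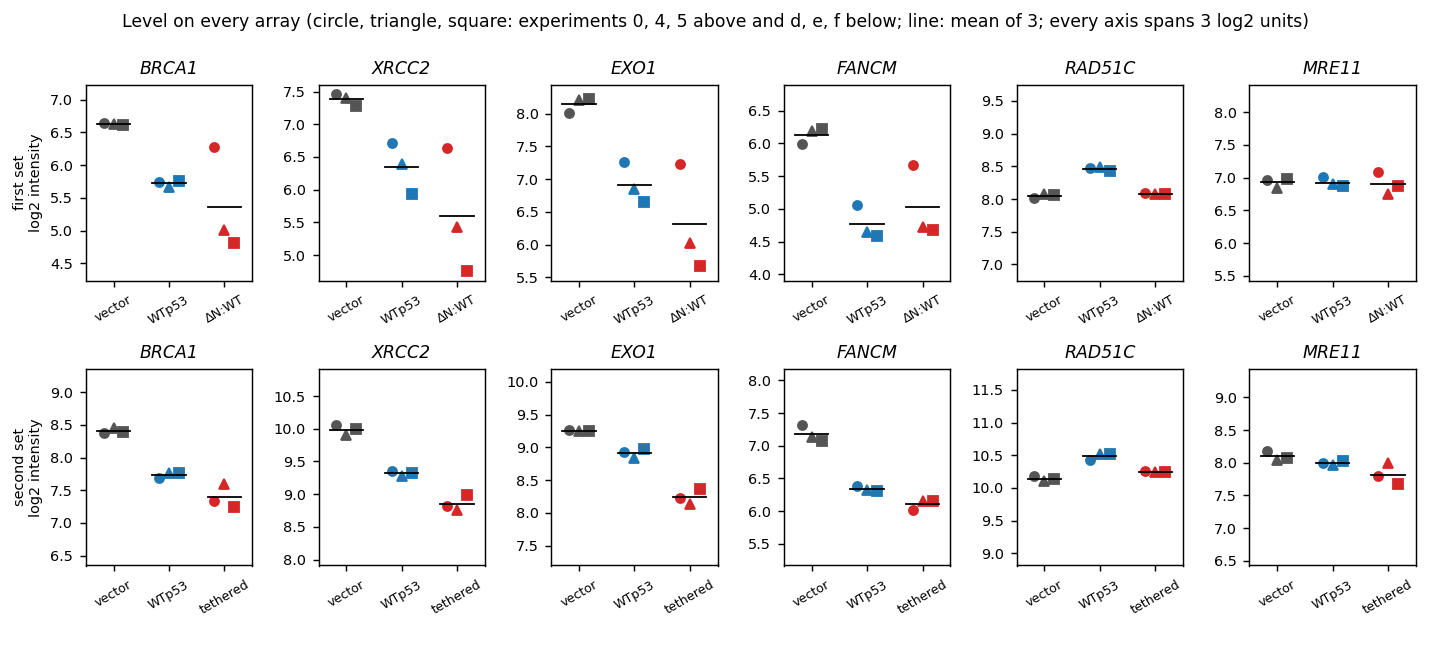
The log2 intensity on every array is plotted on the vertical axis for 6 members with the vector, WTp53 and the remaining construct of the first set (top) and second set (bottom), with 1 symbol for each experiment and a line at the mean of 3 arrays; every axis spans 3 log2 units. BRCA1, XRCC2, EXO1 and FANCM are highest with the vector, RAD51C is highest with WTp53, and MRE11 differs little between groups of the first set.

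RAD51AP1 and the RAD54 proteins, which act when the strand pairs with its copy, fell with ΔNp53:WTp53 and with tethered WTp53, and in part with WTp53. RAD51AP1, which stimulates strand pairing, read 9.04, 8.79 and 8.80 with the vector, 8.46, 8.36 and 7.96 with WTp53, and 8.44, 7.10 and 6.41 with ΔNp53:WTp53. Its values in the second set were 9.83, 9.74 and 9.89 with the vector, 9.76, 9.74 and 9.69 with WTp53, and 9.14, 9.33 and 9.35 with tethered WTp53. There the WTp53 arrays overlapped with the vector and the tethered arrays lay below both. RAD51AP1 fell, with changes of -1.57 ± 0.40 (adjusted p = 0.0117) with ΔNp53:WTp53 and -0.55 ± 0.06 (adjusted p = 2.25e-05) with tethered WTp53. It differed by -0.62 ± 0.40 and -0.09 ± 0.06 with WTp53, which were not called (adjusted p = 0.287 and 0.3). Without experiment 0 the first of these differences was called (-0.64, adjusted p = 0.0495). RAD54L, a motor protein that moves along DNA and remodels joined molecules, read 6.83, 6.53 and 6.53 with the vector, 6.50, 6.36 and 6.26 with WTp53, and 6.44, 5.68 and 5.35 with ΔNp53:WTp53. The second set gave 8.25, 8.07 and 8.24 with the vector, 8.05, 8.04 and 8.11 with WTp53, and 7.82, 7.67 and 7.85 with tethered WTp53. It followed the same order, with changes of -0.81 ± 0.23 (adjusted p = 0.0197) and -0.41 ± 0.06 (adjusted p = 0.000229) and differences with WTp53 of -0.26 and -0.12 that were not called. RAD54B, a related motor protein, read 5.69, 5.56 and 5.53 with the vector, 5.23, 4.76 and 4.94 with WTp53, and 5.39, 4.37 and 4.22 with ΔNp53:WTp53. Its second-set arrays read 7.77, 7.73 and 7.79 with the vector, 7.50, 7.44 and 7.44 with WTp53, and 7.15, 7.08 and 6.99 with tethered WTp53. Its groups did not overlap with the vector. It fell, with changes of -0.94 ± 0.26, -0.30 ± 0.05 and -0.69 ± 0.05 with ΔNp53:WTp53, WTp53 of the second set and tethered WTp53. With WTp53 of the first set it differed by -0.61 ± 0.26 (adjusted p = 0.104) and passed with the block (adjusted p = 0.0255).

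In the Fanconi core complex 6 of 7 measured subunits fell in at least 1 of the 4 comparisons with the vector, as did 24 of the 29 members and 32.5% of all genes, and FANCE fell in none. FANCM, a motor protein that anchors the complex on DNA, read 6.0, 6.19 and 6.22 with the vector, 5.06, 4.65 and 4.58 with WTp53, and 5.68, 4.72 and 4.67 with ΔNp53:WTp53. Second-set arrays read 7.32, 7.13 and 7.08 with the vector, 6.39, 6.32 and 6.31 with WTp53, and 6.02, 6.16 and 6.15 with tethered WTp53. All 12 arrays with p53 constructs lay below the vector arrays of their set. FANCM fell, with changes of -1.37 ± 0.24 (adjusted p = 0.00191) and -1.11 ± 0.24 (adjusted p = 0.00537) in the first set and -0.84 ± 0.07 (adjusted p = 2.82e-06) and -1.07 ± 0.07 (adjusted p = 2.14e-07) in the second, the largest fall with WTp53 among the members of the second set. FANCB, which holds the ligase module together, read 5.91, 5.82 and 5.79 with the vector, 5.26, 4.65 and 4.65 with WTp53, and 4.95, 4.38 and 3.91 with ΔNp53:WTp53. It read 7.98, 7.84 and 7.90 with the vector, 7.58, 7.65 and 7.71 with WTp53, and 6.95, 7.23 and 7.04 with tethered WTp53 in the second set. It fell, with changes of -0.98 ± 0.24 (adjusted p = 0.0111) and -1.43 ± 0.24 (adjusted p = 0.00142), and -0.26 ± 0.07 (adjusted p = 0.0137) and -0.83 ± 0.07 (adjusted p = 2.43e-06), with the tethered arrays below all WTp53 arrays.

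FANCL, the ligase subunit that attaches ubiquitin to the FANCD2-FANCI clamp, read 7.66, 7.51 and 7.54 with the vector, 6.88, 6.63 and 6.63 with WTp53, and 7.14, 6.44 and 6.42 with ΔNp53:WTp53. Its values in the second set were 8.13, 8.22 and 8.33 with the vector, 8.10, 8.19 and 8.16 with WTp53, and 7.74, 7.87 and 7.71 with tethered WTp53. Here the sets differed: the WTp53 arrays were clear of the vector in the first set (-0.86 ± 0.18 (adjusted p = 0.00432)) and overlapped with it in the second (-0.08 ± 0.06 (adjusted p = 0.373)). FANCL fell, with changes of -0.90 ± 0.18 (adjusted p = 0.00303) with ΔNp53:WTp53 and -0.45 ± 0.06 (adjusted p = 8.29e-05) with tethered WTp53. FANCF, the adaptor between subcomplexes, read 4.36, 4.26 and 4.12 with the vector, 3.68, 3.51 and 3.64 with WTp53, and 4.13, 4.04 and 3.75 with ΔNp53:WTp53. Its second-set values, 5.57, 5.55 and 5.63 with the vector, 5.51, 5.53 and 5.45 with WTp53, and 5.49, 5.44 and 5.49 with tethered WTp53, lay close together. FANCF fell, with changes of -0.64 ± 0.11 (adjusted p = 0.00204) with WTp53 in the first set, and its other differences from the vector were -0.28, -0.09 and -0.11 and were not called. Its probe set was dim, at the 24.3 percentile of genes in the first set and the 13.6 percentile in the second.

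FANCG, a scaffold of the complex, read 7.61, 7.55 and 7.50 with the vector, 6.90, 7.08 and 6.88 with WTp53, and 7.28, 6.85 and 6.52 with ΔNp53:WTp53. The second set gave 9.14, 9.09 and 9.19 with the vector, 8.83, 8.84 and 8.80 with WTp53, and 8.76, 8.64 and 8.79 with tethered WTp53. It fell in all 4 comparisons with the vector, with changes of -0.60 ± 0.16 (adjusted p = 0.0171), -0.67 ± 0.16 (adjusted p = 0.00888), -0.32 ± 0.05 (adjusted p = 0.000403) and -0.41 ± 0.05 (adjusted p = 3.47e-05). FANCC read 6.93, 6.76 and 6.81 with the vector, 6.49, 6.74 and 6.36 with WTp53, and 6.65, 5.77 and 5.89 with ΔNp53:WTp53. Its second-set arrays read 8.03, 7.98 and 8.13 with the vector, 7.83, 7.83 and 7.83 with WTp53, and 7.66, 7.52 and 7.61 with tethered WTp53. FANCC, a subunit that joins FANCE and FANCF, fell, with changes of -0.73 ± 0.20 (adjusted p = 0.0174), -0.22 ± 0.05 (adjusted p = 0.00619) and -0.45 ± 0.05 (adjusted p = 2.32e-05) with ΔNp53:WTp53, WTp53 of the second set and tethered WTp53, and differed by -0.31 ± 0.20 (adjusted p = 0.302) with WTp53 of the first set. FANCE ranged from 6.73 to 7.27 in the first set and from 9.65 to 9.87 in the second. With ΔNp53:WTp53 it differed by 0.26 ± 0.10 (adjusted p = 0.063) and passed, as higher, with the block (adjusted p = 0.0414).

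FANCI, a subunit of the clamp that receives the ubiquitin, read 7.86, 7.63 and 7.63 with the vector, 7.09, 6.40 and 6.22 with WTp53, and 7.41, 6.40 and 5.81 with ΔNp53:WTp53. Experiments d, e and f gave 8.89, 8.74 and 8.87 with the vector, 8.27, 8.36 and 8.29 with WTp53, and 8.17, 8.24 and 8.14 with tethered WTp53. It fell with every construct, with changes of -1.13 ± 0.35 (adjusted p = 0.0323) and -1.16 ± 0.35 (adjusted p = 0.0257) in the first set and -0.53 ± 0.05 (adjusted p = 1.56e-05) and -0.65 ± 0.05 (adjusted p = 1.55e-06) in the second. The first-set calls were each lost in 5 of 6 fits that left out 1 array (highest adjusted p = 0.122 and 0.0921).

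Resection of broken ends exposes single-stranded DNA. EXO1, the exonuclease of long resection, read 8.01, 8.21 and 8.22 with the vector, 7.26, 6.85 and 6.65 with WTp53, and 7.23, 6.03 and 5.67 with ΔNp53:WTp53. On the second-set arrays it read 9.26, 9.25 and 9.25 with the vector, 8.93, 8.84 and 8.98 with WTp53, and 8.23, 8.13 and 8.36 with tethered WTp53. Its groups were separate from the vector in both sets and it fell, with changes of -1.23 ± 0.33 (adjusted p = 0.0173) and -1.84 ± 0.33 (adjusted p = 0.00196), and -0.34 ± 0.06 (adjusted p = 0.00102) and -1.01 ± 0.06 (adjusted p = 1.62e-07). The fall with ΔNp53:WTp53 was the largest of any member there. The MRE11-RAD50-NBN complex senses and first trims the ends. NBN, its signalling subunit, read 8.66, 8.36 and 8.35 with the vector, 8.17, 7.93 and 7.77 with WTp53, and 8.31, 7.64 and 7.57 with ΔNp53:WTp53. Its second-set values were 9.89, 9.87 and 9.81 with the vector, 9.72, 9.67 and 9.72 with WTp53, and 9.62, 9.60 and 9.70 with tethered WTp53. NBN fell, with changes of -0.62 ± 0.19 (adjusted p = 0.0288) with ΔNp53:WTp53 (call lost in 5 of 6 fits without 1 array), -0.15 ± 0.04 (adjusted p = 0.0177) with WTp53 of the second set and -0.22 ± 0.04 (adjusted p = 0.00162) with tethered WTp53. With WTp53 of the first set it differed by -0.50 ± 0.19 (adjusted p = 0.0744) and passed with the block (adjusted p = 0.00599). MRE11, the nuclease, ranged from 6.76 to 7.09 in the first set, where it differed by -0.0042 and -0.03 from the vector, and fell by 0.28 ± 0.07 (adjusted p = 0.00725) with tethered WTp53. RAD50, the arm that tethers ends, ranged from 7.56 to 8.12 and from 9.34 to 9.60 and was not called in either set.

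Among the genes that resolve joined DNA, RMI1 and EME1 fell further than their catalytic partners TOP3A and MUS81 in ΔNp53:WTp53 and tethered WTp53 cells, as far as single values show; the difference between partners was not tested. RMI1, which guides the topoisomerase TOP3A in dissolving junctions, read 7.29, 7.03 and 7.07 with the vector, 6.71, 6.40 and 6.52 with WTp53, and 6.69, 6.08 and 5.89 with ΔNp53:WTp53. Arrays of the second set gave 8.50, 8.49 and 8.44 with the vector, 8.24, 8.23 and 8.23 with WTp53, and 7.78, 7.94 and 7.91 with tethered WTp53. It fell in all 4 comparisons with the vector, with changes of -0.58 ± 0.18 (adjusted p = 0.0352), -0.91 ± 0.18 (adjusted p = 0.00364), -0.24 ± 0.05 (adjusted p = 0.00202) and -0.60 ± 0.05 (adjusted p = 1.53e-06). The first of these calls was lost in 5 of 6 fits that left out 1 array (highest adjusted p = 0.12). EME1, the regulatory partner of the nuclease MUS81, read 6.81, 6.71 and 6.55 with the vector, 6.41, 6.36 and 6.10 with WTp53, and 6.30, 5.11 and 5.39 with ΔNp53:WTp53. Its second-set arrays read 8.83, 8.74 and 8.90 with the vector, 8.62, 8.73 and 8.68 with WTp53, and 8.27, 8.26 and 8.24 with tethered WTp53. EME1 fell, with changes of -1.09 ± 0.25 (adjusted p = 0.00692) with ΔNp53:WTp53 and -0.57 ± 0.05 (adjusted p = 3.11e-06) with tethered WTp53. With WTp53 in the first set it differed by -0.40 ± 0.25 (adjusted p = 0.268), and without experiment 0 it was called lower there (-0.40, adjusted p = 0.0465). With WTp53 in the second set it fell by 0.15 ± 0.05 (adjusted p = 0.0396). That call was lost with the block (adjusted p = 0.061) and in 4 of 6 fits that left out 1 array. TOP3A fell with WTp53, with changes of -0.47 ± 0.14 (adjusted p = 0.0226) and -0.31 ± 0.05 (adjusted p = 0.000695), and with tethered WTp53 with a change of -0.25 ± 0.05 (adjusted p = 0.00229). It differed by -0.30 ± 0.14 (adjusted p = 0.113) with ΔNp53:WTp53, and without experiment 0 it was called lower there (-0.52, adjusted p = 0.00454). MUS81 fell with WTp53, with changes of -0.52 ± 0.15 (adjusted p = 0.0208) and -0.16 ± 0.05 (adjusted p = 0.0277), and not with the other constructs (-0.17 and -0.06). Both of its calls were lost in 4 of 6 fits that left out 1 array. SLX4, a scaffold for nucleases, and FAN1, a nuclease that cuts crosslinked DNA, differed from the vector by -0.10 to 0.12 over the 4 comparisons.

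ΔNp53:WTp53 was also set directly against WTp53. Whether a difference here belongs to the isoform was not tested, and tethered WTp53 too had members lower than WTp53, as given below. With ΔNp53:WTp53, RAD51C alone was called lower and 0 members were called higher (0.88% and 1.56% of all genes). An unadjusted p under 0.05 was found for 7 of 29 members and for 3308 of all 18417 genes. The median difference of the members was -0.23. The block gave 1 lower and 0 higher as well (1.63% and 2.74% of all genes). The experiments gave unlike answers: within experiment 0 the median difference of the members was 0.13 and 8 of 29 were lower, within experiment 4 it was -0.29 with 22 lower, and within experiment 5 it was -0.41 with 23 lower. Of all genes, 53.9%, 51.9% and 48.2% were lower in the same pairs. Without experiment 0, 12 members were called lower and 0 higher (6.64% of all genes lower and 6.72% higher). Their differences were -0.80 for BRCA1, -0.74 for BARD1, -0.88 for BRIP1, -1.07 for XRCC2, -1.41 for RAD51AP1, -0.79 for RAD54L, -0.56 for RAD54B, -0.72 for FANCC, -0.90 for EXO1, -0.48 for RMI1, -0.98 for EME1 and -0.38 for RAD51C. Leaving out only the ΔNp53:WTp53 array of experiment 0 gave 14, and leaving out any other single array of these groups gave 0. The shares of all genes in these fits are not given, so the counts show only how much the calls depend on that array. The Fanconi subunits FANCM, FANCL, FANCG and FANCI and PALB2 were not called lower than with WTp53 in any of these fits.

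Tethered WTp53 against WTp53 gave 17 members lower and 0 higher (17.5% of all genes lower and 14.9% higher), with a median difference of -0.23 and medians of -0.23, -0.20 and -0.22 within experiments d, e and f. EXO1 had the largest difference, -0.68 ± 0.06 (adjusted p = 3.68e-05), followed by FANCB with -0.57 ± 0.07 (adjusted p = 0.000223), XRCC2 with -0.47 ± 0.06 (adjusted p = 0.000319), RAD51AP1 with -0.46 ± 0.06 (adjusted p = 0.000375) and EME1 with -0.42 ± 0.05 (adjusted p = 0.000178). The difference of EXO1 alone exceeded 1.5-fold. The 12 members not called included MUS81, TOP3A, NBN, MRE11, RAD50, FANCG and FANCI. Leaving out 1 array at a time gave 16 to 18 calls, whereas a fit that shares 1 spread over both sets called 1, RAD51C.

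**Figure D3:**
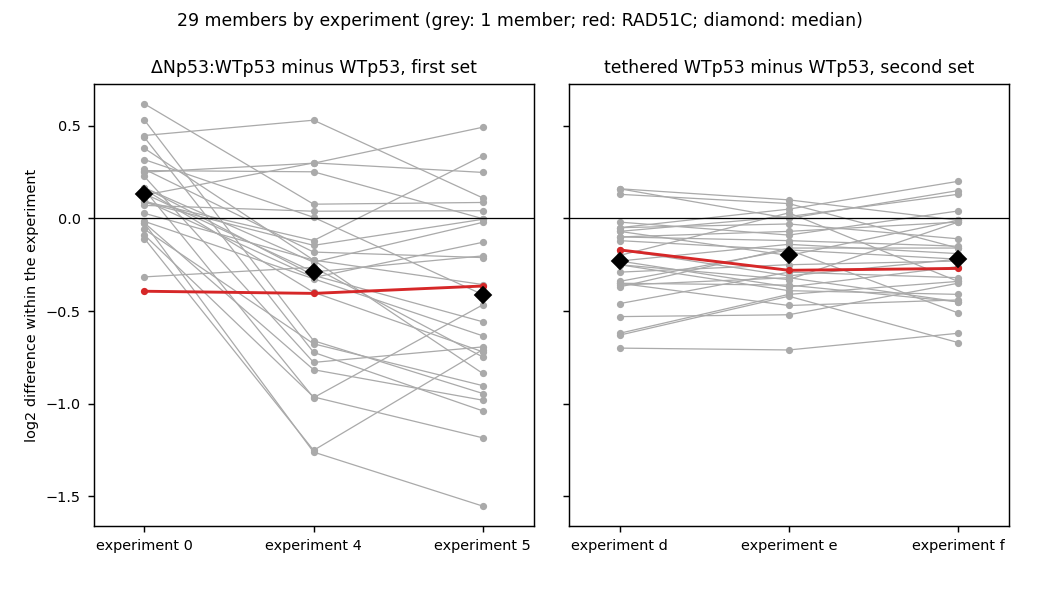
The log2 difference from WTp53 within each experiment is plotted on the vertical axis for 29 members, with ΔNp53:WTp53 in the first set (left) and tethered WTp53 in the second (right); each grey line is 1 member, the red line is RAD51C and diamonds are medians. The median is 0.13 in experiment 0 and -0.29 and -0.41 in experiments 4 and 5, while experiments d, e and f lie between -0.23 and -0.20; RAD51C is below 0 in all 6.

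The effect of WTp53 was measured in both sets and the 2 effects were compared over all 18 arrays. The effect of the first set minus that of the second was called lower for FANCF and FANCL. It was -0.55 ± 0.12 (adjusted p = 0.00961) for FANCF and -0.78 ± 0.20 (adjusted p = 0.0188) for FANCL. Neither was called with WTp53 in the second set. These 2 of 29 members (6.9%) lie close to the 6.55% of all genes called lower in this difference. Called higher were 0 members and 5.93% of all genes. With the block the count was 4, adding BARD1 (adjusted p = 0.0301) and FANCB (adjusted p = 0.0199). The calls over all 18417 genes grew as well with the block, from 1207 to 1713 lower and from 1093 to 1456 higher. RAD51C differed by 0.06 ± 0.07 (adjusted p = 0.594). The sets share no arrays. With WTp53, 10 members fell in both sets, 83.3% of the 12 of the first and 58.8% of the 17 of the second, while for all genes the shares were 71.7% and 63.1%. Of the 20 members that fell with ΔNp53:WTp53 and the 22 that fell with tethered WTp53, 20 were common (100% and 90.9%, against 86.4% and 67.0% for all genes); the 2 others were MRE11 and TOP3A.

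Other genes of the pathways, from a list of 61 of which 56 were measured, held more genes that fell than rose in each comparison with the vector. Against the vector 21 fell and 1 rose with WTp53 in the first set, 33 and 4 with ΔNp53:WTp53, 24 and 4 with WTp53 in the second set, and 38 and 8 with tethered WTp53. HELQ, a helicase of crosslink repair, fell, with changes of -1.52 ± 0.11 (adjusted p = 2.01e-05) and -1.37 ± 0.11 (adjusted p = 2.91e-05) in the first set and -1.01 ± 0.06 (adjusted p = 3.79e-07) and -1.30 ± 0.06 (adjusted p = 2.57e-08) in the second. TOPBP1, an activator of the ATR kinase, fell, with changes of -1.48 ± 0.22 with WTp53 in the first set and -1.07 ± 0.04 with tethered WTp53. ERCC4, a nuclease subunit that unhooks crosslinks, fell, with changes of -1.42 ± 0.15 and -0.71 ± 0.04 with WTp53 in the first and second set. ATR itself fell by 0.70 ± 0.05 with WTp53 in the second set. GEN1, a Holliday junction resolvase, fell by 1.44 ± 0.37 (adjusted p = 0.0123) with ΔNp53:WTp53. BLM, the helicase that works with RMI1 and TOP3A, fell by 1.41 ± 0.24 (adjusted p = 0.0015) there. FIRRM, which acts in crosslink repair, fell by 1.10 ± 0.05 with tethered WTp53.

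RNF168, a ubiquitin ligase that marks histones at breaks, was the clearest rise of that list: it rose by 0.92 ± 0.13 (adjusted p = 0.000496) and 1.63 ± 0.13 (adjusted p = 2.58e-05) in the first set and by 0.50 ± 0.06 (adjusted p = 8.60e-05) and 0.96 ± 0.06 (adjusted p = 2.96e-07) in the second. It was also higher with ΔNp53:WTp53 and with tethered WTp53 than with WTp53, by 0.70 ± 0.13 and 0.47 ± 0.06. EME2, a relative of EME1, rose by 1.02 ± 0.23 (adjusted p = 0.00663) with ΔNp53:WTp53, where EME1 fell, and ABRAXAS1, of the BRCA1-A complex, rose by 0.49 ± 0.12 there and by 0.25 ± 0.06 with tethered WTp53. With WTp53 in the second set MAD2L2, a shieldin subunit that limits resection, rose by 0.25 ± 0.04 and SPIDR by 0.24 ± 0.06; SPIDR also rose with tethered WTp53, by 0.28 ± 0.06. Against WTp53, ΔNp53:WTp53 gave 3 higher and 0 lower (6 higher and 15 lower without experiment 0), namely RNF168, REV1 (0.45 ± 0.09), a translesion polymerase, and FAAP100 (0.45 ± 0.09), a partner of FANCB and FANCL. Tethered WTp53 against WTp53 gave 28 lower and 6 higher, with MND1 (-0.59 ± 0.06), UBE2T (-0.55 ± 0.07), the conjugating enzyme used by FANCL, and FIRRM (-0.51 ± 0.05) at one end and RAD52 (0.38 ± 0.05) and UIMC1 (0.22 ± 0.06) beside RNF168 at the other.

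End joining, the repair route that needs no sister copy, is given beside the members. Of 13 measured genes 6 fell and 0 rose with WTp53 in each set, 7 fell and 2 rose with ΔNp53:WTp53, and 6 fell and 1 rose with tethered WTp53. The list median was -0.23 with WTp53 and -0.27 with ΔNp53:WTp53 in the first set, and -0.12 with WTp53 and -0.13 with tethered WTp53 in the second. LIG4, the ligase of this route, fell, with changes of -0.82 ± 0.11 (adjusted p = 0.000497) with WTp53 and -0.84 ± 0.11 (adjusted p = 0.00041) with ΔNp53:WTp53 in the first set, and -0.39 ± 0.05 (adjusted p = 0.000107) with WTp53 and -0.69 ± 0.05 (adjusted p = 7.57e-07) with tethered WTp53 in the second. XRCC4, its partner, rose by 0.58 ± 0.13 (adjusted p = 0.00573) with ΔNp53:WTp53. Against WTp53, 0 of the 13 were called with ΔNp53:WTp53 (0 at an unadjusted p under 0.05, and 1 higher without experiment 0), and 1 fell and 3 rose with tethered WTp53. LIG4 and XRCC4 were chosen for naming after their values were seen.

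Genes of S phase and of mitosis mark cycling cells and are given beside the members. Of 32 S phase and replication genes 6 fell and 2 rose with WTp53 in the first set (18.8% and 6.25%), and 3 of 22 mitosis genes fell and 1 rose (13.6% and 4.55%), beside the 16.6% and 15.2% of all genes. There the block gave 14 and 4 that fell, and the fit without experiment 0 gave 22 and 8. With ΔNp53:WTp53 27 S phase genes fell and 3 rose, and 21 mitosis genes fell and 0 rose. The counts with WTp53 in the second set were 19 and 4 for S phase and 11 and 0 for mitosis, and with tethered WTp53 28 and 3, and 21 and 0. PCNA, the sliding clamp of replication, and GINS4, a part of the replicative helicase, rose in all 4 comparisons with the vector and were chosen for naming after their values were seen. The mean level of the S phase genes was 8.63, 8.55 and 8.53 with the vector, 8.27, 8.13 and 8.06 with WTp53, and 8.28, 7.57 and 7.28 with ΔNp53:WTp53. In the second set it was 10.08, 10.02 and 10.07 with the vector, 9.93, 9.91 and 9.92 with WTp53, and 9.58, 9.53 and 9.62 with tethered WTp53. The members' own mean was 7.06, 6.99 and 6.98 with the vector, 6.61, 6.43 and 6.30 with WTp53, and 6.74, 6.09 and 5.88 with ΔNp53:WTp53, so the array of experiment 0 is the high one of its group for both lists. In the second set the members' mean was 8.66, 8.62 and 8.66, then 8.41, 8.42 and 8.41, then 8.18, 8.20 and 8.19. Against WTp53, tethered WTp53 had 29 of 32 S phase genes and 21 of 22 mitosis genes lower, and ΔNp53:WTp53 had 0 and 5. For ΔNp53:WTp53 the block gave 2 and 11, and the fit without experiment 0 gave 26 and 18. The part of these cell cycle genes in the members' changes was not tested.

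**Figure D4:**
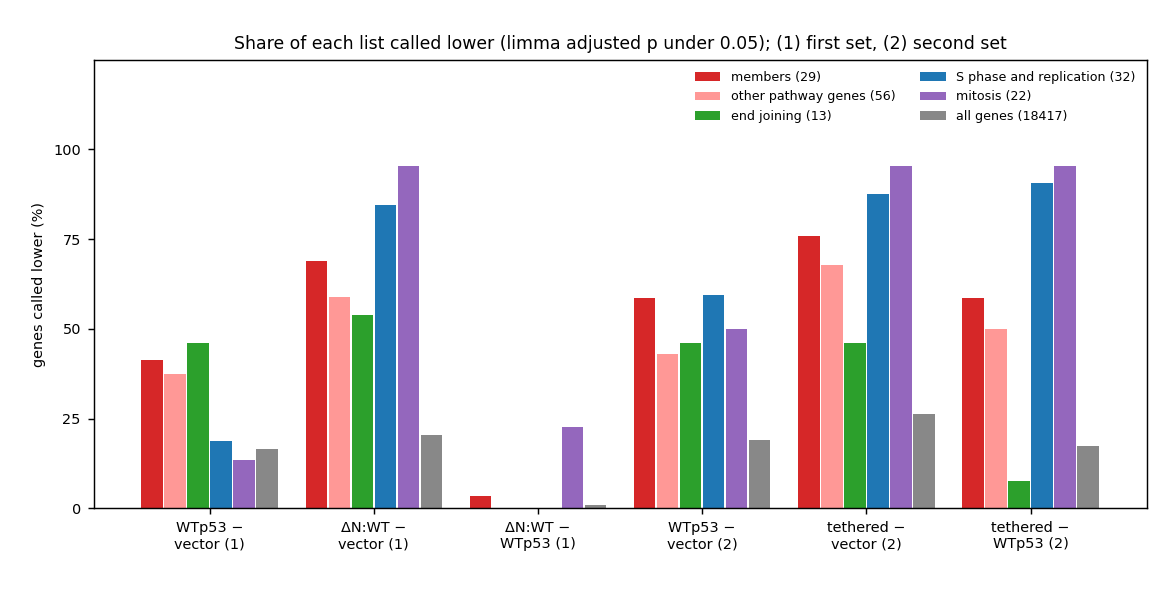
The share of each gene list called lower is plotted as bars on an axis from 0% for 6 comparisons, with the number of measured genes in the legend. The members exceed all genes against the vector and for tethered WTp53 against WTp53. For ΔNp53:WTp53 against WTp53 their bar is 1 gene, RAD51C (3.45%, against 0.88% of all genes). Mitosis genes reach 95.5% with ΔNp53:WTp53 and tethered WTp53 against the vector, and end joining genes stay at 46.2% to 53.8% against the vector.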

How the data were processed

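Of the 18 arrays, each sample's deposited log2 values were used; the authors normalised them with RMA (background correction, quantile normalisation and summary by probe set) in Affymetrix Expression Console, per the submitters' processing notes, in versions not given in the sources used here. Samples were grouped by title. Of 33297 probe sets, 19460 had 1 symbol and were used, 1754 had several, and 12083 were not listed in the probe table; for 769 genes with several probe sets the one with the highest mean was kept, which left 18417 genes, of which 18392 have a symbol in RefSeq. The limma package (version 3.58.1, R 4.3.3) fitted the 9 arrays of each set (two-sided, Benjamini-Hochberg over all genes); the difference between sets used all 18 arrays. The number of arrays limits the precision, and an exact permutation test of 3 against 3 arrays cannot fall under 0.1. In the first set the residuals of all 9 pairs of arrays with the same experiment number correlated by over 0.1. Arrays of experiment 4 correlated with those of experiment 5 by 0.14 to 0.35 as well, while experiment 0 correlated negatively with both. The residuals therefore set experiment 0 apart but do not show that experiments 4 and 5 pair by number. The block by number was kept as an alternative, and blocked values are given where they change a call. In the second set the pairs with the same letter did not all correlate by over 0.1, and the letters were treated as labels. Tested on simulated data, the fit called 60.0%, 44.0% and 52.0% of genes shifted 1.5-fold in the first set (WTp53 and ΔNp53:WTp53 against vector, ΔNp53:WTp53 against WTp53) and 98.0%, 96.0% and 96.0% in the corresponding second-set comparisons. Each simulation held 18417 genes, with 50 shifted at each of the folds 1.2, 1.5, 2 and 4 and the rest unchanged. It called 119 to 185 genes, far fewer than in the data, and its noise was independent between arrays. These shares therefore do not measure how many true changes were called in the data.

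Members and gene lists were chosen with earlier results of these data known. Values on every array are given for members called in at least 1 comparison within a set with a change of at least 1.5-fold, and for RAD51C; from the other pathway genes the 3 largest called changes in each direction are named. The probe set of the transfected gene is not reported here. Alternatives were other samples in the fit, a block, a filter on dim genes, the mean of probe sets, another variance model, median scaling, and leaving out arrays.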

Additional observations from a re-analysis of the deposited data

Results flagged for a closer look

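The effect of WTp53 over the vector was compared between the sets as the difference of both effects over all 18 arrays with limma. A difference was called for 2 of 29 members and 7 of 56 other pathway genes, all lower. Of all genes 6.55% were called lower and 5.93% higher, so the members' share of 6.9% lay close to that of all genes. Among the members, the effect of the first set minus that of the second was -0.55 ± 0.12 for FANCF (adjusted p = 0.00961; -0.64 in the first and -0.09 in the second) and -0.78 ± 0.20 for FANCL (adjusted p = 0.0188; -0.86 and -0.08). The FANCL call was lost without the vector array of experiment d (adjusted p = 0.0504). Among the 7 other pathway genes called, only the 3 with the largest differences are named. These were -0.83 ± 0.24 for TOPBP1 (adjusted p = 0.035), -0.71 ± 0.17 for ERCC4 (adjusted p = 0.0132) and -0.62 ± 0.18 for MND1, known for its part in meiotic recombination (adjusted p = 0.0337). The sets also differ in normalisation, in the range of their values and in replicate spread, and these cannot be told apart from the transfections.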

How the results depend on the processing

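Over the alternatives run, 0 of the members' called changes reversed. With WTp53 in the first set 13 members were called; the count was 21 with only the 6 arrays compared, 20 without experiment 0 and 4 to 13 when single arrays were left out (7, 5 and 6 without the vector arrays of experiments 0, 4 and 5, 7 and 4 without the WTp53 arrays of experiments 4 and 5). With ΔNp53:WTp53 against the vector it was 20, and 11 to 23 when single arrays were left out (11 without the array of experiment 4 or 5 and 12 without the vector array of experiment 0). For ΔNp53:WTp53 against WTp53 it was 1, 3 with both sets in one fit, 0 with only the 6 arrays, 12 without experiment 0 and 0 to 14 when single arrays were left out. One fit over both sets, which applies the wider spread of the first set to the second, gave 3 instead of 18 with WTp53, 13 instead of 22 with tethered WTp53, and 1 instead of 17 for tethered WTp53 against WTp53. The difference between sets gave 2, and 4 with the replicate block, 1 among genes above the median level, where FANCF was not tested, and 1 to 4 when single arrays were left out. The replicate block took 13 to 18 calls with WTp53 in the first set, 20 to 21 with ΔNp53:WTp53 and 18 to 17 with WTp53 in the second set, and left 1, 22 and 17 in the other comparisons. The mean of probe sets changed nothing, since each member has 1. The spread of the first set limits what could be called there. The share of all genes is not given for the fits that left out single arrays, so their counts show only how stable the calls were. The counts of the other gene lists with the block and without experiment 0 were added after seeing the data.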
